A study of Danio rerio with 8 samples.

Results

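The genes described here are the cyclins, the replication machinery and the mitotic machinery of zebrafish, taken by their symbols. A probe set, the group of short probes that reads out one transcript, was a member when the platform annotation gave it exactly 1 symbol beginning with ccna, ccnb, ccnd, ccne, mcm, cdc, cdca, cdk, orc, gins, rfc, rpa, aurk, bub, mad2l, cenp, ncap, smc or kif in the forms that carry a number or letter of the family, with cdc42 and its relatives left out. That gave 135 of 15502 probe sets. Where a gene had several, the one with the highest mean over all 8 arrays stood for it, which left 103 of 8793 genes. The rule reads symbols and mean signals, and no difference between groups.

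Each group consisted of whole embryos at 6 hours post fertilization (hpf), the onset of gastrulation. Embryos of 3 groups carried an antisense morpholino against prmt6, the gene of an arginine methyltransferase that modifies histones, and were sorted by appearance into a severe subtype (3 arrays), a mild subtype (1 array) and a normal subtype (1 array). Control embryos (3 arrays) carried a control morpholino, called cMO. Both reagents went into the early cleaving embryo at 0.3 mM and 3 nl each. No strain or line is named, and a morpholino acts in all cells that inherit it and is diluted as they divide. The titles call the severe and control arrays biological replicates without saying whether they came from separate clutches, so p-values measure the spread between these arrays, and the number of arrays limits precision.

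Cells cycle by loading the origin recognition complex (ORC) onto DNA, which with cdc6 places the ring-shaped MCM helicase in G1. Cdc7 and cyclin-dependent kinases then fire the origins, and cdc45 and the GINS complex join the ring to form the moving helicase. Cyclins A and B with Cdk1 start mitosis, the spindle checkpoint holds the anaphase-promoting complex back until chromosomes are attached, and kinesins, condensin and cohesin move and shape them. Early zebrafish embryos run rapid cleavage cycles on products stored in the egg and slow their cycles around the time the zygotic genome is switched on, so at gastrulation egg-derived and zygotic transcripts of this machinery lie side by side.

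Some arrays stood apart in ways that touch these genes. Severe array 3 correlated with the mild array at a Pearson coefficient of 0.978 and with severe arrays 1 and 2 at 0.955 and 0.961, taken over the 9301 probe sets bright enough to test (these are not independent). Control array 3 correlated with each of the other two control arrays at 0.971, while those correlated with each other at 0.992. Array medians lay between log2 6.47 and 6.80. On the second principal axis of these arrays (15.8% of variance), control 3, severe 3, mild and normal lay at 3.3, 26.5, 30.9 and 19.6. Control arrays 1 and 2 lay at -18.4 and -19.3, and severe arrays 1 and 2 at -25.9 and -16.6. Mean hybridisation control signals were 11.39, 11.23 and 11.13 on severe 3, mild and normal, and 10.69 to 10.98 on the others. Mild and normal thus lay on the side of the arrays numbered 3, and the cause was not tested. Signals were tested for 99 of the 103 genes, those whose mean passed the 40th percentile of all probe sets (log2 5.59). The 4 dim genes were kif5aa, cdk5r2a, cdk5rap2 and mcm9. Their signals were at most 5.51 on any array, and the background bound, the 95th percentile of 17 negative control probe sets, was 5.10. All genes tested, with 1 probe set each, numbered 6192.

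The 99 genes changed in both directions in severe embryos, and as a family they moved no more than other genes. In severe against control, 22 rose and 12 fell by limma at an adjusted p under 0.05. Those are 22.2% and 12.1% of the members, against 23.8% and 16.7% of all genes tested (34.3% of members and 40.5% of all genes in either direction), so neither share stood above the background. RNA came from whole embryos, so fewer cells of a type and less RNA per cell cannot be told apart. The largest rises were cdca9 (6.91-fold), ccnb1l (3.50-fold) and orc3 (2.84-fold). The largest falls were ccnb3 (4.32-fold), kif20bb (4.02-fold) and cenps (3.68-fold). The median difference was 0.12 for the members and 0.14 for all genes, with quartiles at -0.26 and 0.47 for the members and -0.29 and 0.61 for all genes. Changes of at least 2-fold were seen in 14.1% of the members and 22.4% of all genes. The members were also brighter, at a median log2 level of 9.92 against 8.99 for all genes tested. Arrays of the severe and control groups did not overlap for 30 members on the high side and 24 on the low side, which is 30.3% and 24.2%, against 32.6% and 22.7% of all genes and 55.3% of them in either direction. Without control replicate 3, 14 members rose and 7 fell, or 14.1% and 7.07%, against 17.6% and 13.5% of all genes under that fit.

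The balance of these counts depended on how the arrays were scaled. When arrays were scaled on 18 hybridisation control probe sets, 7 members rose and 15 fell in severe embryos, or 7.07% and 15.2%, against 6.01% and 20.4% of all genes, and the median severe difference of all probe sets was -0.17 in place of 0.11 on the log2 scale. The 7 that rose under it were ccna1, ccnb1l, ccnb2, cdca9, kif20a, orc3 and orc4. These passed in all 17 alternatives, and 7 of the falls passed in every one that tested them, namely bub3, ccnb3, cdc26, cenps, kif20bb, mcm3 and mcm5.

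**Figure D1:**
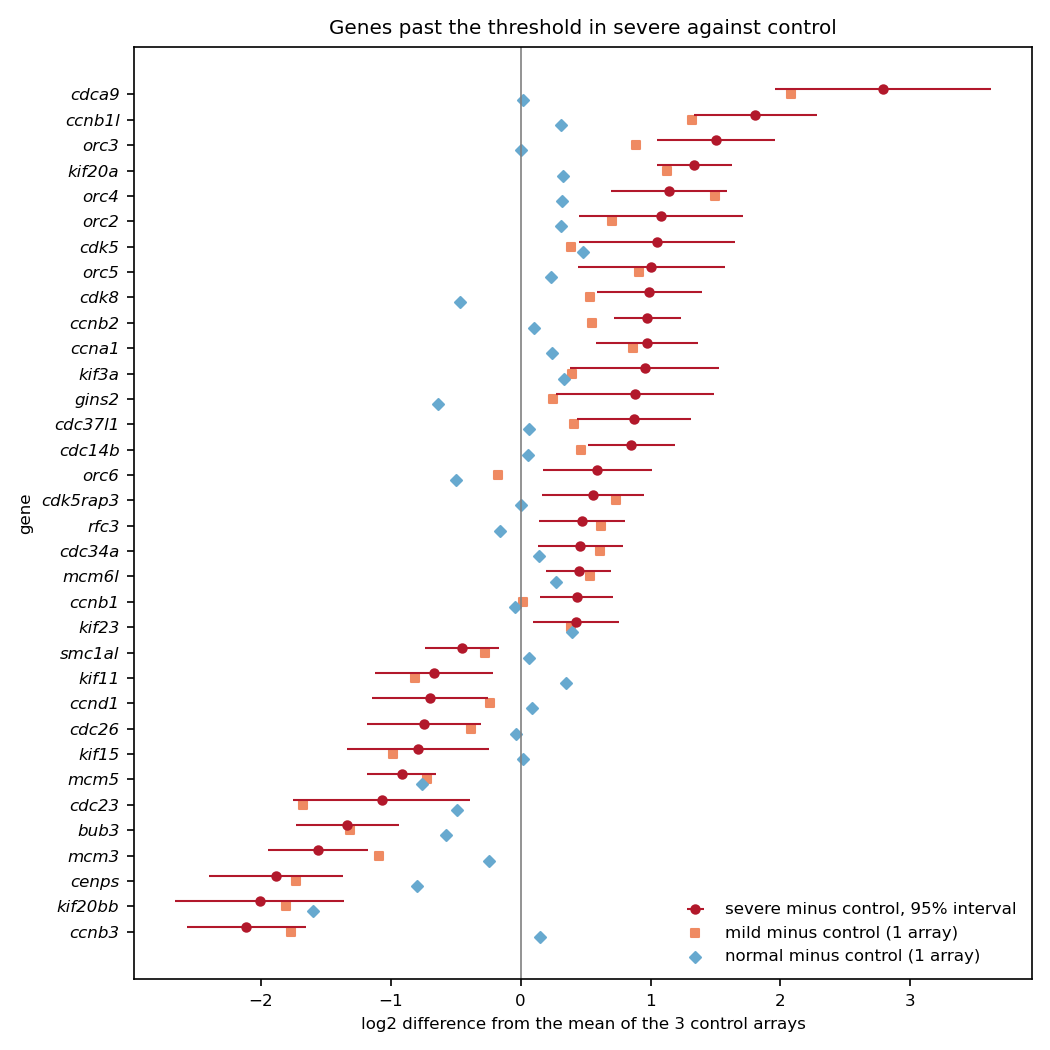
Log2 difference from the mean of the 3 control arrays for the 34 members past the threshold in severe embryos, ordered by size. Circles with bars give severe minus control with its 95% interval, squares the mild array and diamonds the normal array. The 22 rises run from 0.43 to 2.79 and the 12 falls from -0.45 to -2.11.

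Cyclins A and B went both ways in severe embryos. Of the 6 members of cyclins A and B, ccna1, ccnb1, ccnb1l and ccnb2 rose, ccnb3 fell and ccna2 did not pass. In their role group of 8, with cdk1 and cdc25b, 50% rose and 12.5% fell, against 23.8% and 16.7% of all genes. No test of that group was made. Cyclin A1 (ccna1) is the A-type cyclin of eggs and early embryos in Xenopus, and ccna2 is the A-type cyclin of dividing body cells. The ccna1 signals were 13.61, 13.47 and 13.81 in severe embryos, 13.52 in mild and 12.90 in normal embryos, and 12.85, 12.84 and 12.29 in controls. All severe arrays and the mild array lay above every control. The severe difference was log2 0.97 (SE 0.17, limma adjusted p = 0.00255), or 1.96-fold. Signals of ccna2 were 13.37 ± 0.16 in severe embryos and 13.34 ± 0.02 in controls (SD, n = 3 each), and the groups overlapped. Its severe difference of 0.03 had a 95% interval from -0.24 to 0.31.

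Among B-type cyclins, the mitotic activators of Cdk1, the strongest rise was that of ccnb1l, a second ccnb1-like gene. Its signals were 9.84, 9.89 and 9.49 in severe embryos, 9.25 in mild and 8.24 in normal embryos, and 8.18, 8.02 and 7.60 in controls. The mild array lay between severe and control, and the normal array next to the highest control. The severe difference was 1.81 (SE 0.21, limma adjusted p = 0.000331). Cyclin B2 (ccnb2) gave 13.17, 13.02 and 12.98 in severe embryos, 12.63 in mild and 12.19 in normal embryos, and 12.04, 12.18 and 12.02 in controls. It rose 1.96-fold in severe embryos (log2 0.97, SE 0.11, limma adjusted p = 0.000344), with no overlap of the groups. Cyclin B1 (ccnb1) rose by 0.43 (SE 0.12, limma adjusted p = 0.0227), a call lost in 6 of 17 alternatives, hybridisation control scaling among them.

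Cyclin B3 (ccnb3), a B-type cyclin that mouse oocytes need for the onset of anaphase in meiosis, ran the other way. Its signals were 8.41, 8.62 and 8.05 in severe embryos, 8.70 in mild and 10.62 in normal embryos, and 10.30, 10.31 and 10.79 in controls. The normal array lay among the controls, and the severe and mild arrays lay far below every control. The fall was 2.11 on the log2 scale in severe embryos (SE 0.20, limma adjusted p = 0.000149), and it fell by 1.77 in the mild array (limma adjusted p = 0.0073). All 4 ccnb3 probe sets fell in severe embryos, with differences from -2.11 to -1.93; the one used carries a suffix for probes that can bind related transcripts.

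Neither cdk1 nor cdc25b passed in severe embryos. The mitotic kinase cdk1 averaged 8.82 ± 0.27 in severe embryos and 9.29 ± 0.36 in controls (SD, n = 3 each), a difference of -0.46 that did not pass (limma adjusted p = 0.135), with an interval from -0.97 to 0.05. Its activating phosphatase cdc25b differed by 0.12, and its other 2 probe sets by 0.30 and 0.10, none past the threshold. In G1, cyclin D1 (ccnd1), the growth-factor-responsive partner of Cdk4 and Cdk6, gave 11.93, 12.43 and 12.70 in severe embryos, 12.82 in mild and 13.14 in normal embryos, and 12.87, 13.04 and 13.25 in controls. It fell by 0.70 (SE 0.20, limma adjusted p = 0.0211), and a second probe set fell by 1.15 (limma adjusted p = 0.000734). The call on ccnd1 was lost in 5 of 17 alternatives. Cyclin E1 (ccne1), which drives entry into S phase with Cdk2, differed by -0.01 with an interval from -0.27 to 0.24. Its kinase cdk2 averaged 11.46 ± 0.14 in severe embryos and 11.19 ± 0.08 in controls (SD, n = 3 each) and did not pass against control (limma adjusted p = 0.114). Against the normal array, cdk2 was 0.79 higher in severe embryos (limma adjusted p = 0.0182).

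**Figure D2:**
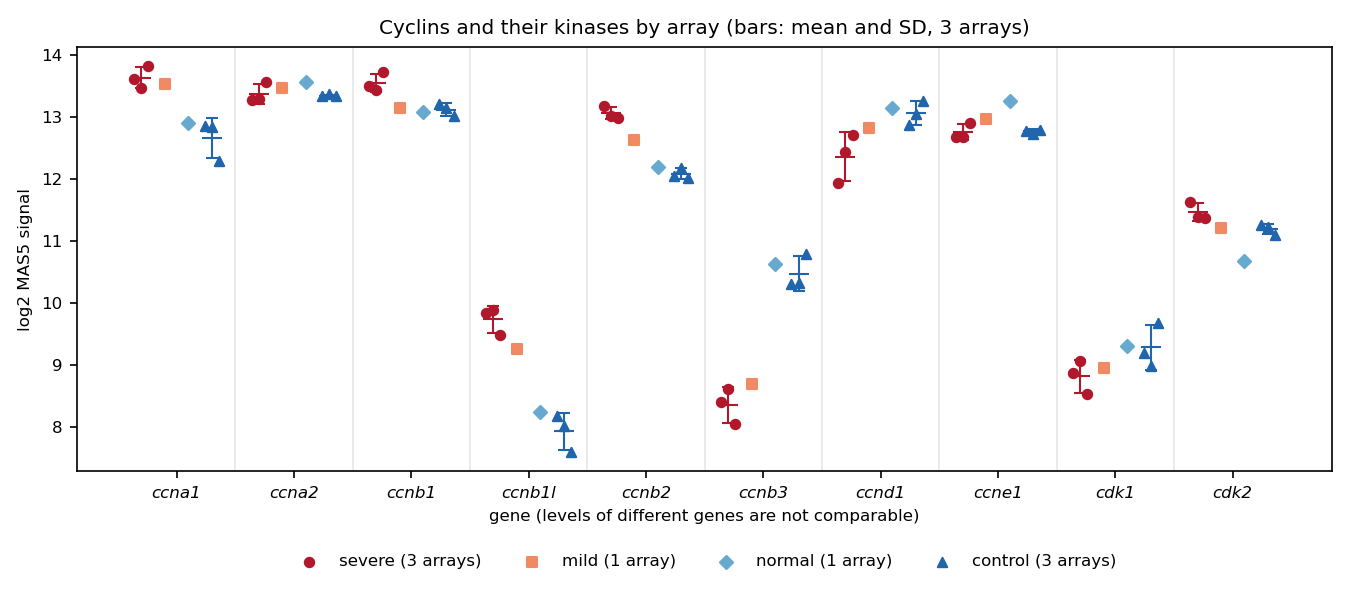
Log2 MAS5 signal of the cyclins, cdk1 and cdk2 on each array, with severe left, then mild, normal and control; bars give the mean and SD of 3 arrays. Signals of ccnb3 lie between 8.05 and 8.62 in severe embryos and between 10.30 and 10.79 in controls, while ccna2 lies between 13.27 and 13.56 on every array.

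Origin licensing genes also went both ways. Of the 14 licensing members, 6 rose in severe embryos and 2 fell. The risers were the ORC subunits orc2 to orc6 and mcm6l, and the 2 that fell belong to the MCM ring, so MCM genes are among both. No difference between the complexes was tested. Share for share, 42.9% of this group rose against 23.8% of all genes, and 14.3% fell against 16.7%. The group median was 0.38 against 0.14 over all genes tested, and no test of the group was made.

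ORC marks the places where replication can start. The subunit gene orc3 gave 10.10, 9.90 and 9.62 in severe embryos, 9.26 in mild and 8.38 in normal embryos, and 8.50, 8.55 and 8.06 in controls. The normal array lay within the controls and the severe arrays lay above all of them. It rose by 1.50 (SE 0.20, limma adjusted p = 0.000641) in severe embryos, and by the same 1.50 against the normal array (limma adjusted p = 0.0119). Signals of orc4 were 9.01, 9.06 and 9.46 in severe embryos, 9.54 in mild and 8.36 in normal embryos, and 8.23, 8.02 and 7.87 in controls. The mild array was the highest of all 8. Its rises were 1.14 in severe embryos (SE 0.20, limma adjusted p = 0.00224) and 1.50 in the mild array (limma adjusted p = 0.0113), though the mild call was lost under hybridisation control scaling.

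The rises of orc2, orc5 and orc6 were 1.08, 1.01 and 0.59 (limma adjusted p = 0.0144, 0.0125 and 0.0333). None of these 3 passed under hybridisation control scaling, and the call on orc6 was lost in 6 of 17 alternatives. The largest subunit, orc1, differed by 0.31 and did not pass (limma adjusted p = 0.157). The loading factor cdc6 averaged 12.37 ± 0.10 in severe embryos and 12.42 ± 0.27 in controls (SD, n = 3 each), with an interval of the difference from -0.39 to 0.29.

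In the MCM ring, the motor that ORC loads, mcm3 and mcm5 fell and the other subunits did not pass as a lower call. The mcm3 signals were 9.94, 10.58 and 10.40 in severe embryos, 10.78 in mild and 11.62 in normal embryos, and 11.86, 11.77 and 11.96 in controls. Severe and mild arrays lay below every control by about a log2 unit or more. The fall was 1.56 in severe embryos (SE 0.17, limma adjusted p = 0.000244) and 1.09 in the mild array (limma adjusted p = 0.0202). A second mcm3 probe set differed by -1.46 in severe embryos (limma adjusted p = 0.00396).

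For mcm5 the normal array was low as well. Its signals were 10.67, 10.49 and 10.46 in severe embryos, 10.74 in mild and 10.70 in normal embryos, and 11.49, 11.41 and 11.47 in controls. Each of the 5 prmt6 morpholino arrays lay below each of the 3 controls. The differences from control were -0.91 in severe embryos (SE 0.12, limma adjusted p = 0.000542), -0.72 in the mild array (limma adjusted p = 0.0251) and -0.76 in the normal array, where it did not pass (limma adjusted p = 0.279). The 3 ring genes mcm2, mcm4 and mcm7 differed by -0.40, 0.04 and -0.29 in severe embryos, none past the threshold. Every severe array of mcm2 and mcm7 lay below every control, as it did for 22.7% of all genes. The mcm2 interval ran from -0.76 to -0.05. This gene passed under quantile normalization, and mcm7 passed under hybridisation control scaling.

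The sixth subunit is read out by mcm6 and by mcm6l, a second mcm6-like gene. Signals of mcm6 were near background, at 5.33, 5.80 and 6.09 in severe embryos, 6.83 in mild and 6.33 in normal embryos, and 5.41, 5.04 and 4.71 in controls. The mild array was the highest. Of 3 controls 1 lay above the background bound and their mean (5.05) lay below it, so the sizes of its differences rest on signals near background. Its difference passed in the mild array (log2 1.77, limma adjusted p = 0.034) and not in severe embryos (0.69, limma adjusted p = 0.118). The gene mcm6l rose by 0.45 in severe embryos (SE 0.11, limma adjusted p = 0.0125), a call lost under hybridisation control scaling and without control replicate 1. Its second probe set differed by 0.33 in severe embryos and did not pass (limma adjusted p = 0.149). Whether the probes tell mcm6 and mcm6l transcripts apart was not tested, so the split between them is uncertain.

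**Figure D3:**
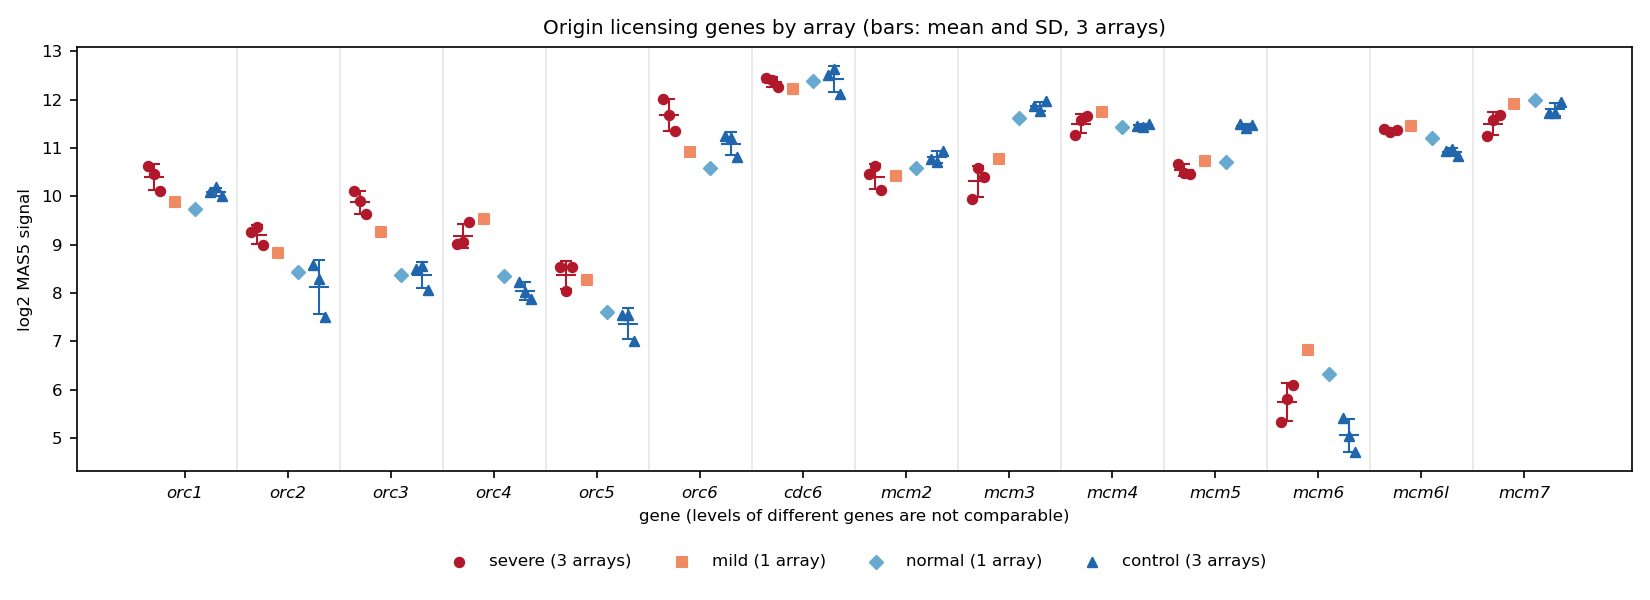
Log2 MAS5 signal of the 14 origin licensing genes on each array, with severe left, then mild, normal and control; bars give the mean and SD of 3 arrays. Severe signals of orc3 (9.62 to 10.10) lie above its controls (8.06 to 8.55), and those of mcm3 (9.94 to 10.58) below its controls (11.77 to 11.96).

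Most origin firing and fork genes did not pass. Of 14 tested, 2 rose in severe embryos and 0 fell, and the group median was 0.05. Those are 14.3% and 0%, against 23.8% and 16.7% of all genes. The GINS subunit gene gins2 rose by 0.88 (SE 0.27, limma adjusted p = 0.0288) and the clamp loader gene rfc3 by 0.47 (SE 0.15, limma adjusted p = 0.0298). Both calls were lost under hybridisation control scaling and in several fits without 1 replicate. The other GINS genes gins1, gins3 and gins4 differed by -0.14, -0.27 and -0.25. The single-strand binding proteins rpa1, rpa2 and rpa3 differed by -0.01, 0.02 and 0.09, with all 3 intervals between -0.36 and 0.37. Neither the kinase cdc7 (-0.20) nor the helicase subunit cdc45 (-0.18) passed. The symbol cdc73 placed a subunit of the transcription complex Paf1 in this group; it differed by 0.34 (limma adjusted p = 0.0737) and is no fork protein.

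Among the mitosis genes of the symbol rule the strongest single change was cdca9, a relative of the borealin gene cdca8 that in Xenopus is called Dasra A. Borealin anchors the chromosomal passenger complex, which carries Aurora B to centromeres. The cdca9 signals were 10.24, 10.06 and 9.14 in severe embryos, 9.11 in mild and 7.04 in normal embryos, and 7.49, 7.26 and 6.33 in controls. Severe array 3 lay next to the mild array, and the normal array lay within the controls. Its rises were 2.79 in severe embryos (SE 0.37, limma adjusted p = 0.000598) and 2.08 in the mild array (limma adjusted p = 0.0329). Against the normal array, severe embryos were 2.77 higher (limma adjusted p = 0.0113), a call kept in all 15 alternatives run. The paralogue cdca8 averaged 12.25 ± 0.13 in severe embryos and 11.94 ± 0.10 in controls (SD, n = 3 each), a difference of 0.31 (limma adjusted p = 0.0667).

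Checkpoint and anaphase genes had 3 falls and, with cdca9, 1 rise among 13 tested. Those are 23.1% and 7.69%, against 16.7% and 23.8% of all genes. The checkpoint adaptor bub3 gave 8.48, 8.46 and 8.09 in severe embryos, 8.36 in mild and 9.10 in normal embryos, and 9.63, 9.61 and 9.79 in controls. Severe and mild arrays lay together, below the normal array, which lay below the controls. It fell by 1.33 in severe embryos (SE 0.18, limma adjusted p = 0.000592) and by 1.31 in the mild array (limma adjusted p = 0.0116), while a second bub3 probe set at -0.62 did not pass in severe embryos (limma adjusted p = 0.0776). The anaphase-promoting complex subunits cdc23 and cdc26 fell by 1.07 and 0.74 (limma adjusted p = 0.0211 and 0.0153), and the subunit cdc27 differed by 0.31 without passing (limma adjusted p = 0.0704). The activator of that complex, cdc20, averaged 12.04 ± 0.18 in severe embryos and 12.17 ± 0.08 in controls (SD, n = 3 each), and did not pass. Nor did the kinases and checkpoint proteins aurka (0.33), bub1ba (0.76), bub1bb (0.04), mad2l1 (-0.39) and mad2l2 (0.38), or the cohesin protector cdca5 (0.11).

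Of 4 centromere genes 0 rose (against 23.8% of all genes) and 1 fell (25%, against 16.7%). That was cenps, whose small histone-fold product sits at kinetochores and also works with the Fanconi anaemia helicase in repair. Its signals were 6.53, 6.31 and 6.18 in severe embryos, 6.49 in mild and 7.42 in normal embryos, and 8.25, 8.10 and 8.30 in controls. The normal array lay between the malformed embryos and the controls. The falls were 1.88 in severe embryos (SE 0.23, limma adjusted p = 0.000398) and 1.73 in the mild array (limma adjusted p = 0.0112), and both held in every alternative that tested the gene. The kinetochore scaffold genes cenpk and cenpt differed by -0.79 and -0.30 and the kinetochore motor gene cenpe by 0.43, none past the threshold. For cenps, cenpk and cenpt, 3 of the 4 genes, every severe array lay below every control, as it did for 22.7% of all genes. The cenpk fall passed in 4 of 17 alternatives.

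Cohesin and condensin genes were close to control, with 1 of 9 lower in severe embryos and 0 higher. Those are 11.1% and 0%, against 16.7% and 23.8% of all genes. The cohesin gene smc1al fell by 0.45 (SE 0.13, limma adjusted p = 0.0208), a call lost in 6 of 17 alternatives, and its 3 other tested probe sets (from -0.64 to -0.22) did not pass. The condensin genes smc2 and ncaph fell in the mild array, by 1.01 and 0.80 (limma adjusted p = 0.0265 and 0.024), and did not pass in severe embryos (-0.19 and -0.34). That difference between severe and mild did not pass its own test for either gene (limma adjusted p = 0.481 each). A second smc2 probe set was 0.33 higher in the mild array and did not pass. A second ncaph probe set differed by -0.95 without passing (limma adjusted p = 0.173), and the mean of 3 ncaph probe sets, 1 of them dim, was 0.093 higher. The condensin genes ncapg, ncapg2, ncapd3 and smc4 and the cohesin gene smc3 differed by at most 0.27 in either direction in severe embryos, and smc5 by 0.33.

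Among 9 mitotic kinesins, 2 rose and 3 fell in severe embryos, or 22.2% and 33.3%, against 23.8% and 16.7% of all genes. The cytokinesis kinesin kif20a gave 12.12, 12.27 and 12.04 in severe embryos, 11.93 in mild and 11.13 in normal embryos, and 10.96, 10.79 and 10.67 in controls. Every severe and mild array lay above the normal array and the controls. It rose 2.53-fold in severe embryos (log2 1.34, SE 0.13, limma adjusted p = 0.000148) and 2.18-fold in the mild array (limma adjusted p = 0.0066). A second kif20a probe set differed by 0.11 in severe embryos (limma adjusted p = 0.623), so the rise rests on 1 of 2 probe sets.

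The gene kif20bb, a copy of another kinesin of the same subfamily, fell. Its signals were 5.45, 5.32 and 5.29 in severe embryos, 5.56 in mild and 5.77 in normal embryos, and 7.30, 7.80 and 6.98 in controls. All 5 prmt6 morpholino arrays lay within about a log2 unit of the background bound and below every control. The differences were -2.01 in severe embryos (SE 0.29, limma adjusted p = 0.000862), -1.80 in the mild array (limma adjusted p = 0.0223) and -1.59 in the normal array, which did not pass (limma adjusted p = 0.343). The spindle-pole-separating kinesins kif11 and kif15 fell by 0.67 and 0.79 in severe embryos (limma adjusted p = 0.0278 and 0.03), and the midzone kinesin kif23 rose by 0.43 (limma adjusted p = 0.0451). The calls on kif15 and kif23 were lost in 7 and 9 of 17 alternatives. Another kif23 probe set rose by 0.97 in severe embryos (limma adjusted p = 0.00497).

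The median of the mitotic kinesins varied more among the severe arrays than that of any other role group. These medians, as differences from the control mean, were 0.61, 0.41 and -0.29 on severe arrays 1 to 3, -0.81 on the mild array and -0.19 on the normal array. Signals of the depolymerase kif2c were 9.88, 9.87 and 8.51 in severe embryos, 8.70 in mild and 8.11 in normal embryos, and 8.77, 8.82 and 8.82 in controls. Severe arrays 1 and 2 lay above all controls and severe array 3 below them. The same order was seen for kif14, kif18a and kif4, at 9.31, 9.28 and 8.22 for kif14, 9.47, 9.26 and 8.67 for kif18a and 9.58, 9.33 and 8.40 for kif4 on severe arrays 1 to 3. None of these 4, picked out after their values were seen, passed in severe embryos, and the labels name no batch that sets array 3 apart.

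Other kinesins, mostly of transport and cilia, had 1 rise among 5 tested (20%, against 23.8% of all genes). That was the ciliary transport motor kif3a, by 0.95 (SE 0.25, limma adjusted p = 0.0167), lost under hybridisation control scaling. The others were kif1b (0.71), kif7 (0.43), kif19 (0.41) and kif2a (0.20), none past the threshold. Beyond them, 20 tested genes carry cdc, cdca or cdk symbols but have other or mixed duties, and 6 of these rose and 0 fell. Those are 30% and 0%, against 23.8% and 16.7% of all genes. The Mediator kinase cdk8 rose by 0.99 (SE 0.18, limma adjusted p = 0.00261; a second probe set by 0.82, limma adjusted p = 0.00204), the phosphatase cdc14b by 0.85 (limma adjusted p = 0.00229) and the Hsp90 partner cdc37l1 by 0.87 (limma adjusted p = 0.00738). Further rises were cdk5 (1.05), the ubiquitin-conjugating enzyme cdc34a (0.46) and cdk5rap3 (0.56). None of the 6 passed under hybridisation control scaling. The calls on cdc34a and cdk5rap3 were lost in 8 and 7 of 17 alternatives, and that on cdk5 in 1. The transcription kinases cdk7 (-0.50) and cdk9 (0.25), the splicing factor cdc5l (0.11) and the other 11 did not pass.

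**Figure D4:**
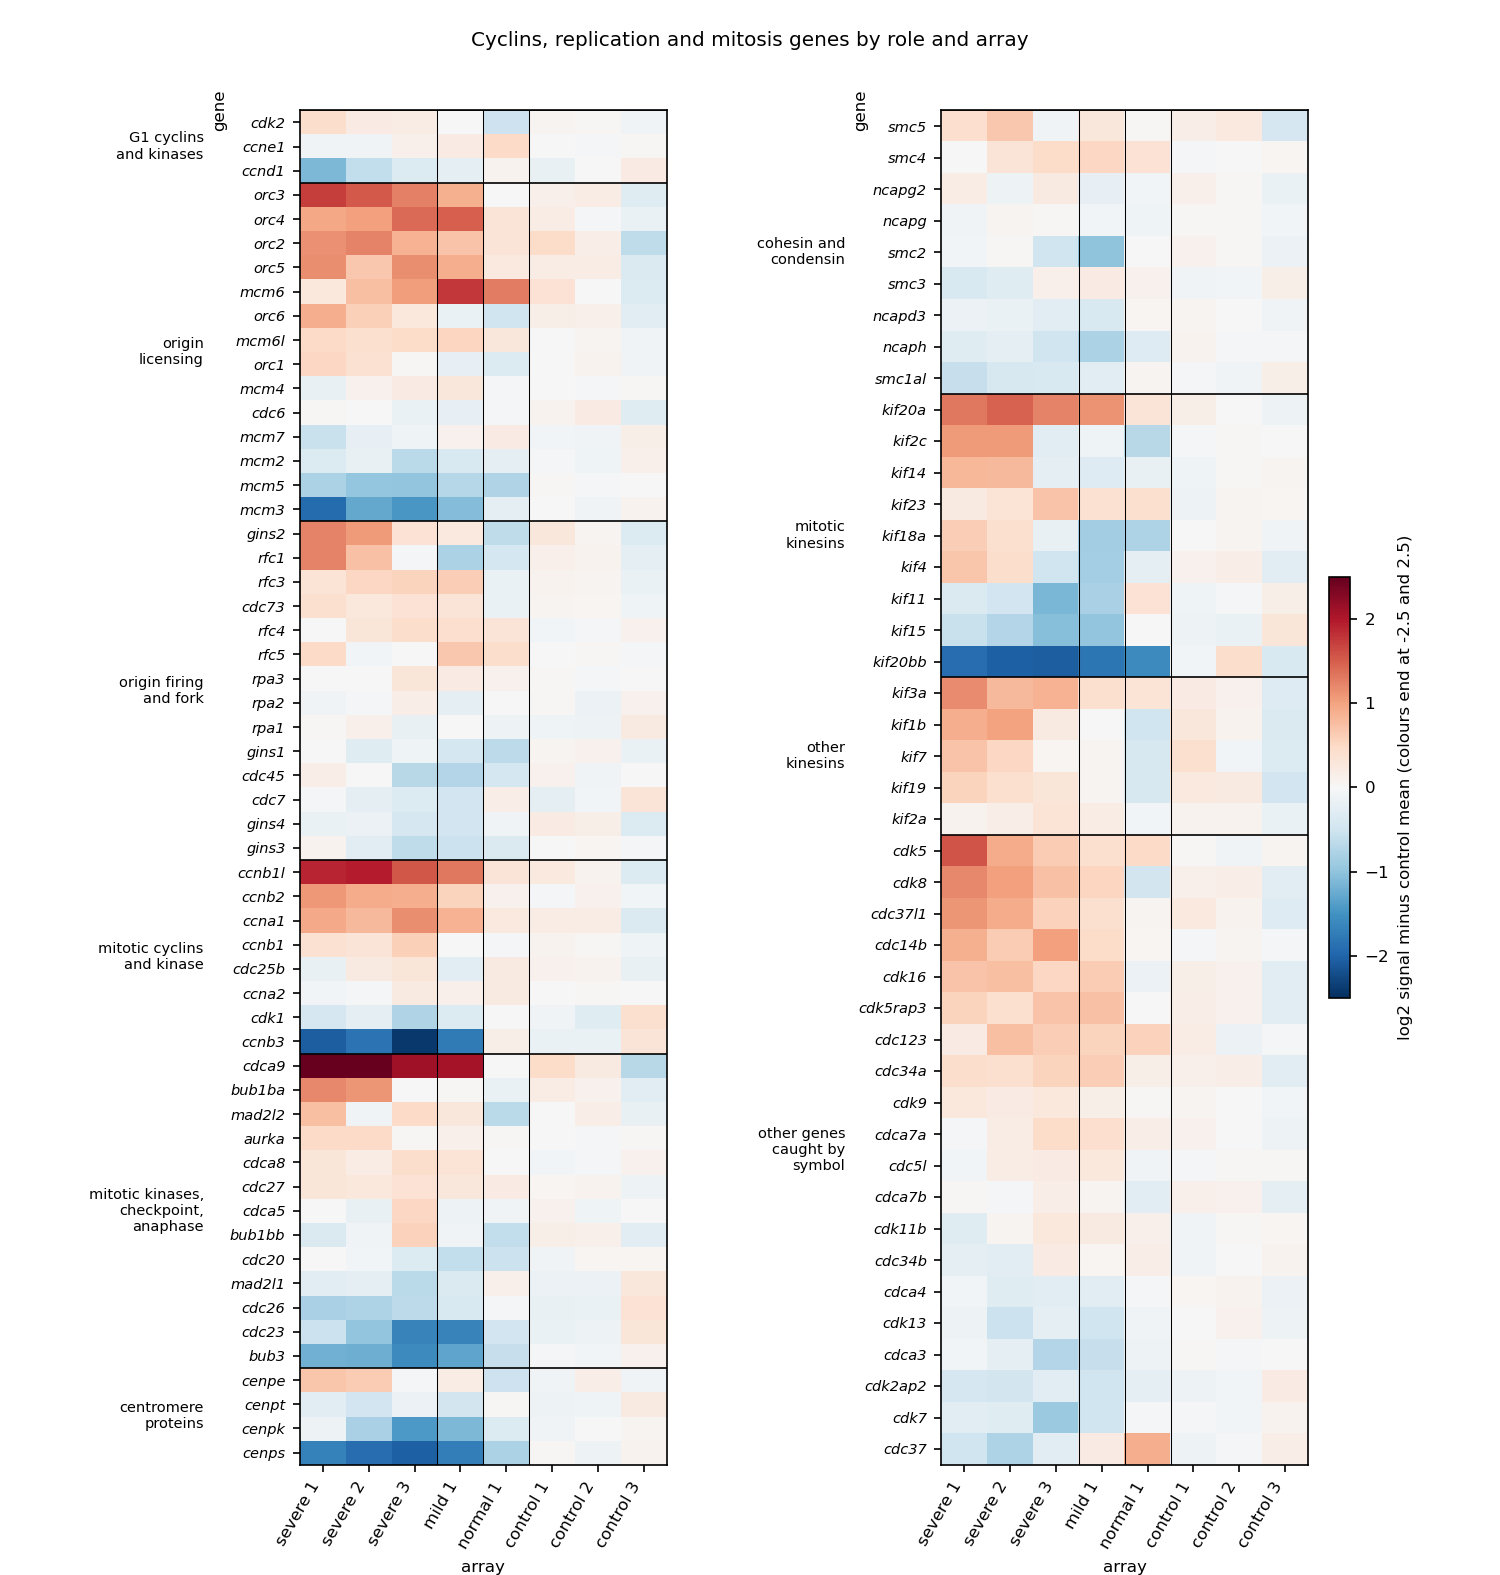
Log2 signal minus the control mean for each of the 99 tested genes (rows, by role and then by severe difference) on the 8 arrays (columns, severe to control). Red is higher and blue lower than the control mean, with colours ending at -2.5 and 2.5; cdca9 (2.79 in severe embryos) and ccnb3 (-2.11) mark the extremes.

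Most members that did not pass had narrow intervals. Of 65 such members in severe against control, 54 had a 95% interval of the difference that lay wholly inside a 2-fold change either way. They include ccna2, ccne1, cdk1, cdk2, cdc6, mcm2, mcm4, mcm7, aurka, cdc20, mad2l1, cdca5, cdca8, all 3 rpa genes and ncapg. For the other 11, which include mcm6, rfc1, bub1ba, cenpk, kif2c, kif14 and kif1b, the intervals reached a 2-fold change. No such share was taken over all genes, which were dimmer than the members (median log2 level 8.99 against 9.92). A narrow interval does not mean no change. The intervals of mcm2 (-0.76 to -0.05), mad2l1 (-0.78 to -0.01), cdca8 (0.04 to 0.58) and aurka (0.004 to 0.66) left out equality with control. These intervals were not adjusted for the number of genes. Without adjustment, the limma p in severe against control was under 0.05 for 46.5% of members and 50.4% of all genes.

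In 5 pairs of related genes, picked because they diverged in these data, the ratio within each array is given as a description. The ccna1 signal relative to ccna2, set to 0 at the control mean, was 1.02, 0.86 and 0.93 in severe embryos, 0.74 in mild and 0.03 in normal embryos, and 0.20, 0.16 and -0.36 in controls. The cdca9 signal relative to cdca8 was 2.91, 2.85 and 1.68 in severe embryos, 1.74 in mild embryos, within 0.01 of the control mean in normal embryos, and at most 0.54 in controls. For ccnb2 relative to ccnb3 the values were 3.15, 2.79 and 3.32 in severe embryos, 2.32 in mild and -0.05 in normal embryos, and at most 0.26 in controls. For kif20a relative to kif20bb they were 3.22, 3.51 and 3.30 in severe embryos, 2.93 in mild and 1.92 in normal embryos. Controls of that pair were at most 0.25, and kif20bb was near background on the prmt6 morpholino arrays. For birc5b relative to birc5a, outside the symbol rule, the ratio was 2.45, 2.27 and 2.09 in severe embryos. It was 1.57 in mild and -0.76 in normal embryos, and 0.63, 0.52 and -1.15 in controls. A scaling factor per array leaves these ratios as they are. Other pairs among the members had severe differences of 0.46 and -0.10 for cdc34a and cdc34b, 0.20 and 0.06 for cdca7a and cdca7b, and 0.76 and 0.04 for bub1ba and bub1bb. Of these 6 genes only cdc34a passed in severe against control.

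The mild array shared its directions with the severe arrays for the genes that passed in both. In mild against control, 6 members rose and 9 fell, or 6.06% and 9.09%, against 5.81% and 8.04% of all genes tested and 13.9% of these in either direction. Risers were cdca9, mcm6, orc4, ccnb1l, kif20a and ccna1. Those that fell were kif20bb, ccnb3, cenps, cdc23, bub3, mcm3, smc2, ncaph and mcm5. The 2 comparisons share their control arrays, so their likeness is not independent evidence. None of the 6 rises passed under hybridisation control scaling, while the 9 falls all did. That scaling put the median of the tested probe sets in the mild array at -0.42 in place of 0.03. The count of rises was 2 without control replicate 2 (2.02%, against 2.1% of all genes under that fit). It was 3 without either control replicate 3 or severe replicate 2 (3.03% each, against 4.23% and 3.33% of all genes). The count of falls was 3 without control replicate 1, 4 without control replicate 2 and 16 without severe replicate 3. Those are 3.03%, 4.04% and 16.2%, against 4.99%, 4.76% and 11.9% of all genes. Among the rises, the mild call was lost in 12 of 15 alternatives for ccna1, 6 of 14 for mcm6 and 5 of 15 for cdca9. It was lost in 2 of 15 for ccnb1l and in 1 of 15 for orc4 and kif20a. Among the falls, it was lost in 5 of 15 for cdc23 and in 4 of 15 for mcm5 and smc2. For ncaph it was lost in 4 and reversed in 1 of 15. It was lost in 3 of 15 for mcm3, 3 of 14 for kif20bb and 1 of 15 for bub3. The calls for ccnb3 and cenps passed in every alternative that tested them.

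The test of severe against mild called 0 of 99 members in limma, as it called 0% of all genes. In it 11 members had an unadjusted p under 0.05, or 11.1% against 10.7% of all genes. Of the 99, 67 had intervals inside a 2-fold difference between severe and mild. The largest differences were rfc1 (1.44) and kif18a (1.15) on the high side and mcm6 (-1.09) on the low side. Using replicates 1 and 2 of severe and control alone, 24 members were higher and 4 lower in severe than in mild embryos, or 24.2% and 4.04%, against 19.7% and 11.5% of all genes under that fit.

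Embryos sorted as normal after the same morpholino, read on 1 array, were close to control for most members. In normal against control, limma called 0 of 99 members in either direction, against 0% of all genes higher and 0.0323% lower, and 10 members had an unadjusted p under 0.05, or 10.1% against 9.11% of all genes. With replicates 1 and 2 of severe and control alone, 1 was higher and 11 were lower, or 1.01% and 11.1%, against 4.94% and 7.48% of all genes under that fit. Differences ran from -1.59 (kif20bb) to 0.90 (cdc37) among members with a control mean above background, with mcm6, whose control mean was below it, at 1.28, and 67 of the 99 had intervals inside a 2-fold change. For ccna1, ccnb1l, ccnb2, ccnb3, orc3 and cdca9 the normal differences were 0.25, 0.31, 0.11, 0.15, 0.01 and 0.02. Others that passed in both severe and mild embryos lay further off in part. They were orc4 (0.32), kif20a (0.33), mcm3 (-0.25), cdc23 (-0.49), bub3 (-0.58), mcm5 (-0.76), cenps (-0.80) and kif20bb (-1.59), none past the threshold.

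The severe and normal subtypes received the same reagent and differ in how they were sorted, so their comparison asks what goes with malformation. The normal side is 1 array, so a difference can also rest on that array lying away from the controls. In severe against normal, 12 members were higher and 5 lower, or 12.1% and 5.05%, against 13% and 10.1% of all genes and 23% of them in either direction. Without severe replicate 3 the counts were 23 and 10, or 23.2% and 10.1%, against 22.9% and 15.5% of all genes under that fit. Without control replicate 1, control replicate 2 or severe replicate 2, 2 or 3 were lower. Those are 3.03%, 2.02% and 2.02%, against 6.99%, 6.93% and 6.75% of all genes. Higher in severe embryos were cdca9, gins2, orc3, ccnb1l, cdk8, kif1b, orc6, kif18a, kif20a, ccnb2, cdc14b and cdk2. Lower were ccnb3 (-2.26, limma adjusted p = 0.00394), cdc37 (-1.43), mcm3 (-1.31), cenps (-1.08) and kif11 (-1.02). The normal array differed from control by -0.51 for cdk2, -0.49 for kif1b and -0.64 for gins2. Severe embryos differed from control by 0.27, 0.71 and 0.88 for these genes. For cdc37 the normal array lay 0.90 above control. None of these normal differences passed, and of these genes only gins2 passed in severe against control. Only cdca9, mcm3 and ccnb3 kept their calls in all 15 alternatives. For mcm5 and kif20bb, low on every prmt6 morpholino array, the severe and normal subtypes differed by -0.16 and -0.41 and did not pass (limma adjusted p = 0.516 and 0.48).

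By role, the severe medians were highest for the other kinesins, origin licensing, the mitotic kinesins and the mitotic cyclins (0.43, 0.38, 0.28 and 0.27) and lowest for centromere proteins (-0.55). Origin licensing had severe arrays at 0.37, 0.39 and 0.24, above every control (at most 0.06), with the mild array at 0.20 and the normal array at -0.01. Mitotic cyclins with their kinase gave 0.15, 0.28 and 0.45 in severe embryos, 0.07 in mild and 0.19 in normal embryos, and at most 0.05 in controls. Over all 6192 genes the medians were 0.17, 0.16 and 0.10 on the severe arrays. Under hybridisation control scaling the severe median of origin licensing was 0.09 and that of the mitotic cyclins -0.01. The median of all tested probe sets, which are not limited to 1 per gene as the role medians are, was -0.17.

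**Figure D5:**
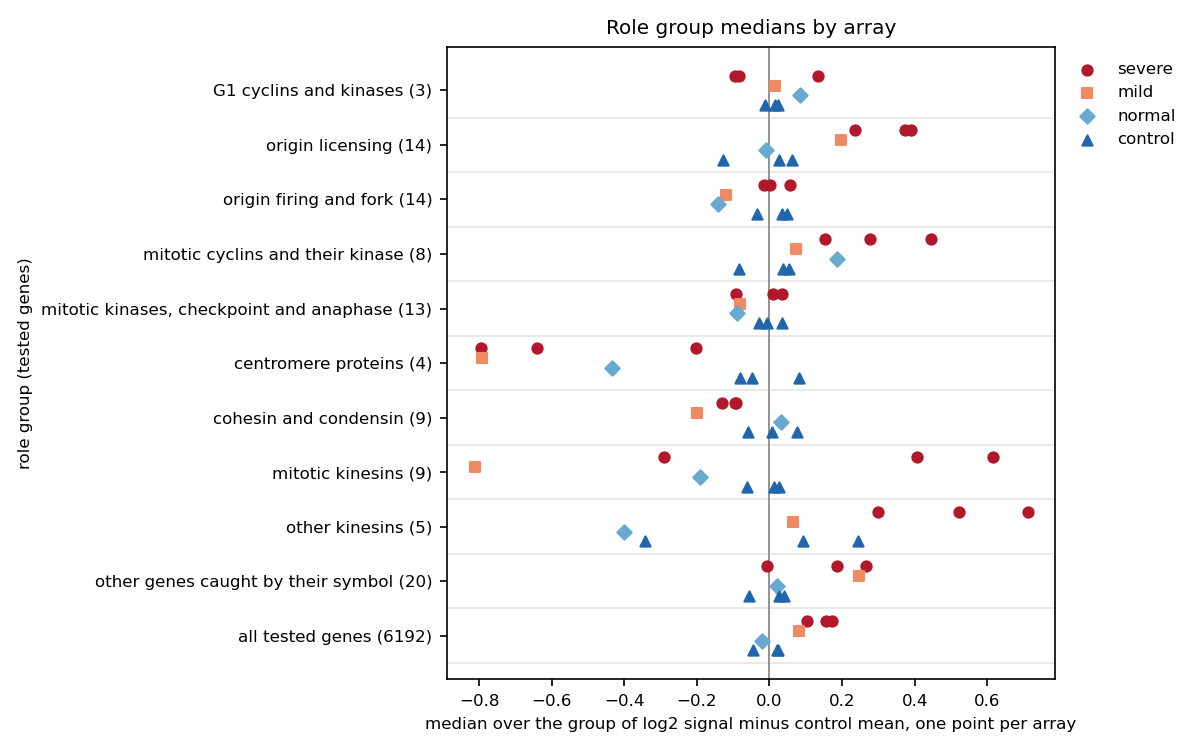
Median over each role group of the log2 signal minus the control mean, 1 point per array; circles are severe, squares mild, diamonds normal and triangles control arrays, and the number of tested genes stands beside each group. Origin licensing lies at 0.24 to 0.39 on severe arrays, and mitotic kinesins spread from -0.29 to 0.61.

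Other genes of the cycle, listed apart from the symbol rule, also went both ways in severe embryos. Of all genes tested 23.8% rose and 16.7% fell in severe embryos, with a median of 0.14. This list and those that follow were chosen with earlier results of these data known. Of 36 replication genes and their regulators measured and tested, 5 rose and 6 fell, with a median of 0.07. The 3 with the smallest p were regulators that fell, the E2F factors e2f3 (log2 -1.14, limma adjusted p = 0.000841) and e2f8 (-0.97, limma adjusted p = 0.00246) and the retinoblastoma relative rbl1 (-1.46, limma adjusted p = 0.00194). Neither the sliding clamp gene pcna (-0.28) nor the licensing inhibitor gene gmnn (0.42) passed.

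Of 51 tested mitosis genes outside the rule, 12 rose and 10 fell in severe embryos, where 23.8% and 16.7% of all genes did. The B-Myb gene mybl2b, an activator of mitotic genes, gave 7.65, 7.86 and 6.32 in severe embryos, 7.36 in mild and 8.83 in normal embryos, and 10.20, 10.27 and 10.38 in controls. The controls lay together, the normal array below them and the malformed embryos lower still. It fell by 3.00 in severe embryos (SE 0.36, limma adjusted p = 0.000378) and it fell by 2.92 in the mild array (limma adjusted p = 0.00924). The kinetochore gene nuf2 fell by 2.22 (limma adjusted p = 0.000641) and the tubulin gene tubb2b by 0.97 (limma adjusted p = 0.000511). The survivin gene birc5b, whose product joins borealin in the passenger complex, rose by 1.14 while birc5a fell by 1.13 (limma adjusted p = 0.0157 and 0.0133).

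Inhibitors and checkpoint genes had 8 rises and 1 fall among 18 tested in severe embryos, where 23.8% and 16.7% of all genes did. Their median was 0.44, against 0.14 over all genes. The 3 with the smallest p were the growth-arrest gene gadd45aa (2.79), the meiotic kinase gene mos (2.63) and btg4 (2.76), an adaptor for mRNA deadenylation (limma adjusted p = 0.000149, 0.000592 and 0.00221). Both mos and btg4 also belong to the egg transcripts. In the mild array 3 of this list rose and 0 fell, where 5.81% and 8.04% of all genes did. In the normal array 0 of 18 passed in limma, where 0% of all genes were higher and 0.0323% lower.

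Markers of other embryo parts moved along with these changes. The counts below stand beside 23.8% of all genes that rose and 16.7% that fell in severe embryos. These marker lists were chosen with earlier results of these data known, so the counts are a description. Of 19 egg transcripts measured, 13 rose and 1 fell in severe embryos, and their summed log2 level was 15.47 to 15.71 on severe arrays, 15.40 on the mild and 14.80 on the normal array, and 14.51 to 14.69 on controls. Of 16 markers of the enveloping layer, the outer epithelium, 13 fell, and their summed level was 13.24 to 14.06, 13.98, 15.70 and 15.74 to 16.14 in the same groups, with anxa1b and anxa1c under background on all severe arrays. All 12 early gastrula markers measured lay above background on every control array, and 10 of 11 tested fell in severe embryos, with summed levels of 13.11 to 13.79, 14.40, 14.95 and 14.86 to 15.18. Markers of differentiated blood, muscle, nerve, gut and immune cells were near background, with 1 of 12 bright enough to be tested. Their part in the changes of the cell cycle genes was not tested.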

How the data were processed

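Transcripts of whole embryos were read out on 8 zebrafish arrays from Affymetrix. The deposited values are log2 signals, which the submitters' processing notes credit to MAS5 without naming a version. MAS5 corrects for mismatch probes, so low signals vary more. Each array had a trimmed mean signal of 500 on the linear scale (2% trimmed at each end), per the values.

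Control probe sets (115) were removed and the rest filtered at the 40th percentile of the mean, leaving 9301. A limma 3.58.1 model in R 4.3.3 (eBayes with trend, 4 residual degrees of freedom) estimated 1 mean per group, and p-values were adjusted by Benjamini-Hochberg over all 9301. Mild and normal embryos have 1 array each and were assumed to vary like the replicated groups. The members, roles and lists were chosen with earlier results of these data known. Named genes were all cyclins, cdk1, cdk2 and mcm2 to mcm7, the 3 genes per role with the smallest p in severe embryos, the 3 largest called changes in each other comparison and 3 per outside list. Further members were named after their values were seen. The fit was checked on simulated data. Same-numbered severe and control arrays deviated together at correlations of 0.34, -0.07 and 0.34, so the numbers were not taken as pairs. Differently numbered arrays gave 0.38 and 0.02 among arrays 1 and 2, and -0.45 to 0.04 where 1 was numbered 3. The main fit had no term for such shared structure. Alternatives covered scaling, filter, a pseudocount of 16, the variance model, probe set choice, the arrays used, single replicates left out and a replicate block. No genome or sequence was used here. Figures were drawn with matplotlib 3.10.9.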

Additional observations from a re-analysis of the deposited data

How the results depend on the processing

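The counts of members called, higher then lower, were 22 and 12 in severe against control, 6 and 9 in mild against control, 12 and 5 in severe against normal, and 0 and 0 in the other comparisons. Scaling on hybridisation controls gave 7 and 15, 0 and 11, and 1 and 3, and left the others at 0. Those are 7.07% and 15.2%, 0% and 11.1%, and 1.01% and 3.03% of the members. All genes under it gave 6.01% and 20.4%, 0.307% and 9.95%, and 1.52% and 5.12%. Using replicates 1 and 2 of severe and control alone gave 33 and 14, 15 and 22, and 34 and 15, with 1 and 11 in normal against control and 24 and 4 in severe against mild. In this order those are 33.3% and 14.1%, 15.2% and 22.2%, 34.3% and 15.2%, 1.01% and 11.1%, and 24.2% and 4.04% of the members. All genes under that fit gave 31.1% and 20%, 17% and 17.1%, 33.4% and 21.8%, 4.94% and 7.48%, and 19.7% and 11.5%. Without the variance trend, 4 fell in mild embryos (4.04%, against 6.59% of all genes). With the mean of a gene's probe sets 5 did, with no share over all genes taken. Under that mean the ncaph difference in mild embryos was 0.093. With a filter at the 60th percentile, which left 90 members tested, 3 were lower in severe than in normal embryos. Those are 3.33%, against 470 of 4487 genes under that filter. Quantile normalization, median centring, no filter and the pseudocount kept every count within 1.5 times. The cause of these shifts was not tested. Leaving out 1 replicate at a time gave 14 to 30 higher and 7 to 13 lower in severe embryos. It gave 2 to 9 and 3 to 16 in mild embryos and 8 to 23 and 2 to 10 in severe against normal. Normal against control and severe against mild stayed at 0. Over all genes these fits gave 16.7% to 28.9% higher and 13.4% to 18.6% lower in severe embryos. They gave 2.1% to 9.43% and 4.76% to 11.9% in mild embryos. In severe against normal they gave 5.38% to 22.9% and 6.57% to 15.5%. A replicate block gave 27 higher and 15 lower in severe against control, with the numbers shared but not shown to pair the arrays. Those are 27.3% and 15.2%, against 30.5% and 19.5% of all genes. Over the 38 genes that the naming rule picked, most of them for a small p or a large change, 2906 values came from alternatives. Of these, 2705 kept direction and call, 114 lost the call, 86 gained it and 1 reversed. The single mild and normal arrays and the dimmest signals, near background, limit what these arrays resolve.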
